A study of Mus musculus with 8 samples.

Results

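The genes described here are 48 members of the TGF-beta and BMP signalling pathways, chosen by name and role: ligands, the proteins that hold latent TGF-beta, receptors and co-receptors, SMAD signal transducers, secreted or membrane-bound antagonists, and the ID genes. The rule used names and roles and no threshold on a measured value. The members were nevertheless chosen with earlier results of these data known. They are 48 of the 27179 genes in the count table, and all 48 were matched by symbol. A filter on low counts retained 47 of them, and Nog, which encodes the BMP antagonist noggin, was not tested.

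TGF-beta family ligands are dimers that join type II and type I receptor kinases on the cell surface, and the type I kinase then phosphorylates receptor SMADs, which enter the nucleus together with the common SMAD encoded by Smad4. TGF-beta and activins mostly use Smad2 and Smad3, BMPs mostly use Smad1, Smad5 and Smad9, and the ID genes are classical targets of the BMP branch. In lung, blood vessel endothelium uses a branch built from the type I receptor ALK1 (Acvrl1), the type II receptor Bmpr2 and the co-receptor endoglin (Eng), while fibroblasts deposit latent TGF-beta in the matrix bound to the LTBP proteins.

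Bulk RNA-seq covered 8 libraries of cells sorted from lungs of Eml4-Alk mice, 4 libraries of the QZ1-hi and 4 of the QZ1-lo population. The labels give the strain as C57BL/6 (C57BL/6J in the methods) and the genotype as an Eml4-Alk translocation, which the methods call a rearrangement of Eml4 and Alk. Tumors had been started in female mice by an adenovirus with Cas9 and guides against both genes, and the donors of both populations were 11 to 12 weeks after induction. Their age is taken as 18 to 22 weeks, which the methods give for the age-matched healthy controls. Each mouse had received 4.5 nmol of QZ1-(PEG2K) intravenously, a quenched probe that gains Cy5 fluorescence when proteases cut it, and its lungs were taken 2 h later. Live cells without CD45 and CD11b were divided by probe signal, gated against EpCAM, so each library mixes tumor, epithelial, endothelial and mesenchymal cells, and the purity of the fractions was not assessed by the study. CD105, the protein product of Eng, was stained in the same cells but was not part of the gate. Libraries from healthy lungs or from mice without the probe were not analysed here, and the sources do not say whether the libraries of a population came from separate mice, so p-values measure only the spread between these libraries. They also do not say whether a QZ1-hi and a QZ1-lo library came from the same mouse, and any such pairing is not taken into account in the SE and calls.

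Total counts ranged from 18380918 to 26847938 per library, of which mitochondrial genes and ribosomal RNA took 44.0% to 65.7% in QZ1-hi and 34.3% to 53.5% in QZ1-lo. The ranges of this share overlapped, and all 17 calls described below were kept when these genes were removed. Levels are given as CPM, counts scaled to a common library size by TMM (factors 0.660 to 1.35), and a floor of 3 counts corresponds to 0.0894 to 0.179 CPM, for counting error only. Differences are log2 fold changes (log2FC) of QZ1-hi over QZ1-lo with their standard error (SE), tested by edgeR over 15583 genes, and "called" means a Benjamini-Hochberg adjusted p under 0.05.

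The upstream sequences of Smad6 and Eng are shown because these members of the BMP branch were both higher in QZ1-hi and because GENCODE M21 places no exon in the 250 bases before their RefSeq start. The inhibitory SMAD gene Smad6 is at chr9:63953076-64022059 on the minus strand, and Eng is at chr2:32646595-32682669 on the plus strand. Each run is read 5′ to 3′ from RefSeq (GRCm38.p6) and holds 250 bases before the start and 10 after it, at chr9:64022050-64022309 for Smad6 and chr2:32646345-32646604 for Eng. Capitals mark GTCTAGAC or CAGAC on either strand, so that GTCTG is CAGAC on the other strand.
Smad6: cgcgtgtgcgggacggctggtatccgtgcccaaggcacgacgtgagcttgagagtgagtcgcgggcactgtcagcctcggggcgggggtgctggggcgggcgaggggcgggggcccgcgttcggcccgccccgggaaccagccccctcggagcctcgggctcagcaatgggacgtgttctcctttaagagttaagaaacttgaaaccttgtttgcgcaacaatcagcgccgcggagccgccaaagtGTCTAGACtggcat
Eng: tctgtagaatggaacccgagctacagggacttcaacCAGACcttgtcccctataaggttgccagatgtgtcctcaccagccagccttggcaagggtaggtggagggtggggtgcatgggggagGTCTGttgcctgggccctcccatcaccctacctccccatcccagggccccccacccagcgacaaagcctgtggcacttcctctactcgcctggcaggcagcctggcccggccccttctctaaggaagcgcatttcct
GTCTAGAC, a palindrome to which SMAD proteins bind, stood at bases 247 to 254 of the Smad6 run and so spanned its start. CAGAC, the short SMAD box, stood at bases 37 to 41 and, on the other strand, at bases 124 to 128 of the Eng run. The motifs GTCTAGAC, CAGAC and GGCGCC, the GC-rich SMAD site, were chosen after the values were known. They were searched on both strands in the same 260 bases of 32851 RefSeq promoters, where GTCTAGAC and CAGAC can share letters. Of the 48 members 36 had an entry. A member was counted by gene if any of its entries held the motif, while all promoters were counted by entry. A gene with several entries had more chances of a match, so the shares are not in like units. GTCTAGAC was in 1 of the 36, Smad6, and in 0.177% of all promoters. GGCGCC was in 10 of the 36 and in 9.96% of all promoters, and CAGAC in 18 of the 36 and in 44.0% of all. Among the 12 members with an entry that were called higher in QZ1-hi, GGCGCC was in 3 and CAGAC in 8. A match describes the letters in these windows and is not evidence of binding.

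The pathway genes were more often higher than lower in QZ1-hi. They were listed with earlier results of these data known, so their shares beside those of all genes are a description. Of the 47 tested, 16 were called higher, which is 34.0% of them against 9.88% of all genes tested, and 1, Smad3, was called lower, which is 2.13% against 8.21% of all genes. The other 30 were not called, with log2FC values from -0.99 to 1.92. An unadjusted p under 0.05 was found for 24 of the 47, beside 4509 of the 15583 genes tested. The median log2FC of the 47 was 0.45, beside 0.02 over all genes tested. Of the 47, 34 lay above 0, beside 8133 of the 15583 genes tested. The 4 QZ1-hi libraries all lay above the 4 QZ1-lo libraries for 17 members (11.9% of all genes did so) and all below for 1 member (10.7% of all genes). Gdf10 and Fst, both called higher, met the low-count filter only through their QZ1-hi libraries, so their calls and their place in these counts are a description. In bulk RNA, a larger share of cells that express a gene and more of its RNA per cell cannot be told apart. Leaving out 1 library at a time left 13 to 17 members called higher and 0 or 1 lower. The fewest, 13 higher and 0 lower, remained without QZ1-lo 2, and the most, 17 higher and 0 lower, without QZ1-lo 3. Leaving out QZ1-hi 3 left 14 called higher and 1 lower.

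**Figure D1:**
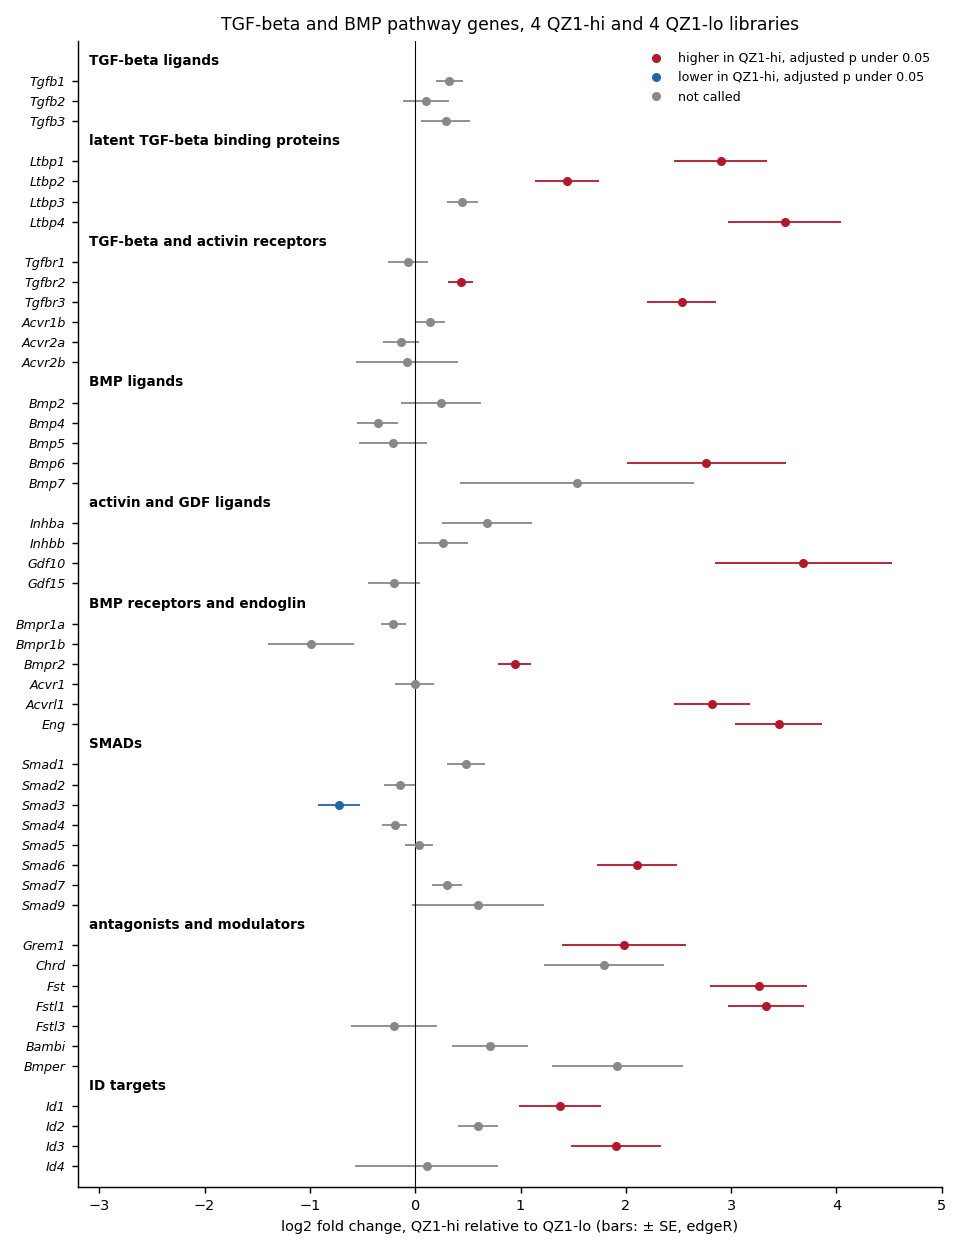
The log2FC of QZ1-hi over QZ1-lo (x axis) for the 47 members tested, grouped by role, with bars of ± SE from edgeR and 4 libraries per population. The 16 red points were called higher and the single blue point, Smad3, lower; the grey points lie between -0.99 and 1.92.

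Markers of other cell types moved with the populations and run beside every group of members described below. The summed level of 7 pan-endothelial markers was 670 to 1690 CPM in QZ1-hi and 45.3 to 220 CPM in QZ1-lo, and all 7 were called higher. For 8 fibroblast markers the sums were 1047 to 2139 CPM and 34.0 to 244 CPM, with 7 of the 8 called higher. Pericyte markers summed to 42.9 to 66.3 CPM against 8.31 to 26.2 CPM, with 2 of 6 called higher, and platelet markers to 17.2 to 35.2 CPM against 3.79 to 8.87 CPM, with 3 of 4 called higher. The 5 pan-epithelial markers went the other way, at 473 to 758 CPM in QZ1-hi and 1290 to 1758 CPM in QZ1-lo, and all 5 were called lower. Each of these 5 sums did not overlap between the populations, which gave p = 0.0286 in a two-sided exact permutation test, the smallest value that 70 assignments allow. The epithelial lists did not all fall: alveolar type 2 markers, the list with the largest sum, came to 5553 to 10154 CPM in QZ1-hi and 4298 to 6669 CPM in QZ1-lo, with 1 of 6 called higher, 0 lower and an exact permutation p of 0.0571. Of the alveolar type 1 markers 1 of 4 was called higher and 3 lower, and all 3 club and all 4 ciliated markers were called lower. Hematopoietic markers remained after the gate, at 2961 to 6299 CPM and 2114 to 4169 CPM, with 0 of 7 called and an exact permutation p of 0.286. The part of these cell types in the members' differences was not tested, and where a member's level relative to the summed markers is given below it is a description.

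The 3 TGF-beta ligand genes were not called. Tgfb1, the ligand most widely made by immune and stromal cells, was at 54.7, 53.0, 46.7 and 64.5 CPM in QZ1-hi libraries 1 to 4 and at 46.9, 42.6, 39.4 and 46.1 CPM in QZ1-lo libraries 1 to 4. The ranges of Tgfb1 overlapped narrowly, and its log2FC was 0.32 (SE 0.13, adjusted p = 0.113). Tgfb2 stood between 11.4 and 17.2 CPM in QZ1-hi and between 9.01 and 16.7 CPM in QZ1-lo, and Tgfb3 between 14.1 and 29.5 CPM and between 14.5 and 20.4 CPM. Of the exon bases of Tgfb3 12.4% lie opposite other genes, and the strand setting of the counting is not given in the sources used here. The order of the ligand levels per length was the same in both populations, with Tgfb1 at 10.9 and 8.68 CPM per kb of exon, Tgfb3 at 5.97 and 4.89, and Tgfb2 at 2.39 and 2.22.

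Unlike the ligands, the genes for latent TGF-beta binding proteins were separated between the populations in all 4 cases, and 3 of the 4 were called higher. These large matrix proteins anchor the latent TGF-beta complex, except for the Ltbp2 product, which belongs to the family but does not bind that complex. Ltbp4 was at 99.8, 138, 295 and 135 CPM in QZ1-hi libraries 1 to 4 and at 7.18, 16.3, 29.8 and 5.32 CPM in QZ1-lo libraries 1 to 4. Its lowest QZ1-hi library was above its highest QZ1-lo library by a wide margin, with a log2FC of 3.51 (SE 0.54, adjusted p = 0.00116), which was 4.12 without QZ1-lo 3. Ltbp1 was at 42.3, 40.6, 61.9 and 32.1 CPM in QZ1-hi and at 4.50, 9.03, 8.65 and 1.51 CPM in QZ1-lo, a log2FC of 2.90 (SE 0.44, adjusted p = 0.00117). Ltbp2 changed less, from 12.1, 14.5, 15.6 and 7.08 CPM in QZ1-lo to 49.8, 38.0, 22.8 and 22.9 CPM in QZ1-hi, a log2FC of 1.44 (SE 0.30, adjusted p = 0.00659). In contrast to Ltbp1 and Ltbp4, it was highest in QZ1-hi 1 and not in QZ1-hi 3. Of its exon bases 9.3% lie opposite another gene. Ltbp3, at 76.5 to 93.2 CPM in QZ1-hi and 50.3 to 75.2 CPM in QZ1-lo, did not pass the test with edgeR (log2FC 0.45, SE 0.15, adjusted p = 0.064) and passed it with DESeq2 (0.042) and with limma voom (0.020). Per length, Ltbp4 was the highest of the family in QZ1-hi, at 25.8 CPM per kb against 9.23 for Ltbp3, 4.14 for Ltbp1 and 4.08 for Ltbp2, whereas Ltbp3 was the highest in QZ1-lo at 6.77 CPM per kb against 2.27 for Ltbp4.

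Among the TGF-beta and activin receptor genes, the co-receptor and the type II receptor of TGF-beta were called higher and the other 4 of 6 were not called. Tgfbr3, which encodes betaglycan, a co-receptor that presents TGF-beta and also binds inhibin, was at 47.3, 66.3, 98.8 and 58.0 CPM in QZ1-hi libraries 1 to 4. In QZ1-lo libraries 1 to 4 it was at 6.65, 13.5, 18.4 and 8.19 CPM. The populations lay far apart, with a log2FC of 2.53 (SE 0.33, adjusted p = 5.48e-04). Tgfbr2, the type II receptor, was at 168, 222, 219 and 208 CPM in QZ1-hi and at 150, 149, 146 and 160 CPM in QZ1-lo. It was separated by a small distance only, with a log2FC of 0.43 (SE 0.12, adjusted p = 0.027). The Tgfbr2 call was lost when QZ1-hi 2, QZ1-hi 3, QZ1-lo 1, QZ1-lo 2 or QZ1-lo 3 was left out, at adjusted p of 0.066 to 0.103 in edgeR, and scaling by library size alone gave a log2FC of -0.05. Tgfbr1, the type I receptor that pairs with it, was at 61.4 to 113 CPM and 74.9 to 92.7 CPM (log2FC -0.07, SE 0.19, adjusted p = 0.864). The activin receptor genes Acvr1b, Acvr2a and Acvr2b had log2FC values of 0.14, -0.13 and -0.08, with SE of 0.14, 0.17 and 0.48, and none was called. Of the exon bases of Acvr2a 7.8% lie opposite Orc4.

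**Figure D2:**
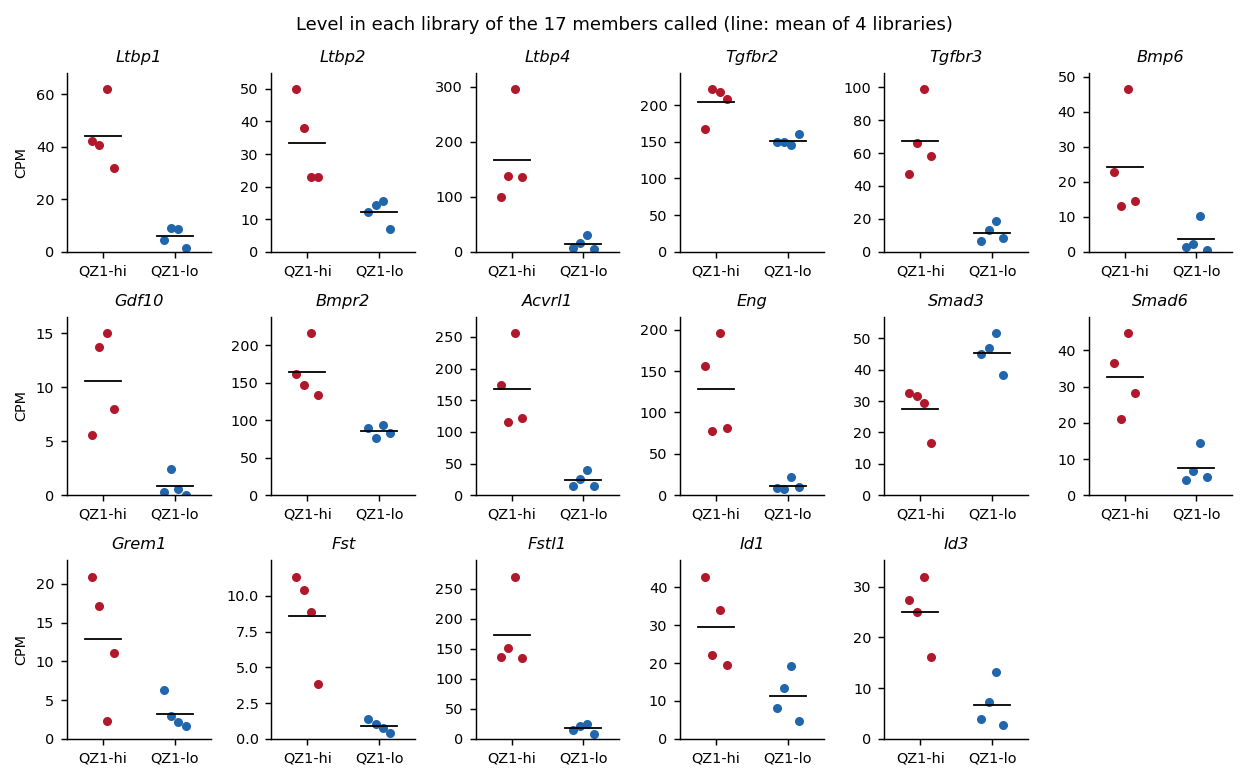
Level in CPM (y axis, from 0, a scale of its own in each panel) of the 17 members called, in the 4 QZ1-hi libraries (red) and the 4 QZ1-lo libraries (blue), with a line at the mean. In 16 of the 17 panels the populations do not overlap; Grem1 is the exception, because its lowest QZ1-hi library is at 2.31 CPM, and Smad3 is the panel with the lower QZ1-hi levels.

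Of 5 BMP ligand genes, 1 was called. Bmp6, a BMP made by endothelium in several organs, was at 22.8, 13.2, 46.4 and 14.6 CPM in QZ1-hi libraries 1 to 4 and at 1.34, 2.32, 10.1 and 0.450 CPM in QZ1-lo libraries 1 to 4. QZ1-hi 3 and QZ1-lo 3 were the highest libraries of their populations, and the log2FC was 2.76 (SE 0.76, adjusted p = 0.026). That call was lost without QZ1-hi 3, QZ1-lo 1 or QZ1-lo 2, where the adjusted p was 0.067 to 0.079 and the log2FC 2.23 to 2.61, and with robust shrinkage (0.084). Without QZ1-lo 3 the log2FC of Bmp6 was 4.14, and limma voom gave 3.72. Of its exon bases 5.7% lie opposite Txndc5. Bmp4, a ligand with broad roles in lung development, was at 18.1 to 30.2 CPM in QZ1-hi and 24.0 to 38.6 CPM in QZ1-lo, with a log2FC of -0.36 (SE 0.20, adjusted p = 0.268). Bmp2 and Bmp5 also overlapped, with log2FC values of 0.24 and -0.21, and 46.7% of the exon bases of Bmp5 lie opposite another gene. Bmp7 held 0 to 57 counts per library, at 0.297 to 3.30 CPM in QZ1-hi and 0.00 to 1.19 CPM in QZ1-lo. Per length, Bmp4 was the most abundant BMP transcript in both populations, at 10.2 CPM per kb in QZ1-hi and 13.1 in QZ1-lo, and Bmp6 rose from 0.913 CPM per kb in QZ1-lo to 6.22 in QZ1-hi, next to Bmp4.

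The activin and GDF ligand group also held a single call. Gdf10, a BMP3-related ligand, was at 5.59, 13.8, 15.03 and 7.99 CPM in QZ1-hi libraries 1 to 4 and at 0.268, 2.44, 0.615 and 0.00 CPM in QZ1-lo libraries 1 to 4, where QZ1-lo 4 held 0 counts. All QZ1-hi libraries were above all QZ1-lo libraries, and the log2FC was 3.69 (SE 0.84, adjusted p = 0.010). Without QZ1-lo 2, the highest QZ1-lo library, the log2FC of Gdf10 was 5.12, and limma voom gave 5.03. Only its QZ1-hi libraries carried Gdf10 past the low-count filter. It fell out of the test when at least 10 counts were asked for in every library. Inhba and Inhbb, which encode the activin subunits, had log2FC values of 0.68 (SE 0.43) and 0.27 (SE 0.24). Gdf15, a stress-induced ligand that signals through a receptor outside this family, was at 8.40 to 11.7 CPM and 6.96 to 14.9 CPM, with a log2FC of -0.20 (SE 0.25).

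Of the receptor genes of the endothelial BMP branch, Acvrl1 and Eng held high levels in QZ1-hi and large differences, and Bmpr2 differed less. Acvrl1, the type I receptor ALK1, was at 175, 116, 256 and 122 CPM in QZ1-hi libraries 1 to 4 and at 14.9, 24.9, 40.4 and 14.6 CPM in QZ1-lo libraries 1 to 4. Its log2FC was 2.82 (SE 0.36, adjusted p = 5.48e-04). Eng, the co-receptor, was at 156, 78.1, 196 and 81.3 CPM in QZ1-hi and at 8.44, 7.20, 21.5 and 9.54 CPM in QZ1-lo. The populations were again well apart, and the log2FC of Eng was 3.45 (SE 0.41, adjusted p = 3.85e-04). Bmpr2, the type II receptor shared by many BMPs, was at 163, 147, 217 and 133 CPM in QZ1-hi and at 89.5, 76.0, 94.1 and 83.2 CPM in QZ1-lo, a log2FC of 0.94 (SE 0.16, adjusted p = 0.00181). Scaling by library size alone lowered the Bmpr2 difference to 0.50 and ended its call (adjusted p = 0.200). The other BMP type I receptor genes were not called. Bmpr1a was at 33.1 to 38.3 CPM and 37.6 to 46.2 CPM (log2FC -0.21, SE 0.12, adjusted p = 0.280), Acvr1 had a log2FC of 0.00 (SE 0.19), and Bmpr1b, at 1.21 to 2.20 CPM and 1.84 to 5.03 CPM, had one of -0.99 (SE 0.41, adjusted p = 0.132). Acvrl1 had the highest level per length of all members in QZ1-hi, 39.2 CPM per kb, followed by Fstl1 at 35.2, Eng at 31.6 and Id2 at 27.8, while in QZ1-lo the highest were Tgfbr2 and Id2, at 18.5 CPM per kb each.

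Acvrl1 and Acvr1b are neighbours on chromosome 15, 28.7 kb apart (GENCODE M21, GRCm38), with 0 RefSeq protein-coding genes lying wholly between them. Acvr1b, the activin type I receptor gene, was at 30.8, 32.2, 25.7 and 29.6 CPM in QZ1-hi and at 23.5, 23.4, 30.9 and 29.4 CPM in QZ1-lo, so its ranges overlapped while those of Acvrl1 did not. Per length, the level of Acvrl1 over that of Acvr1b in the same library was 3.72 to 10.3 in QZ1-hi and 0.515 to 1.36 in QZ1-lo.

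**Figure D3:**
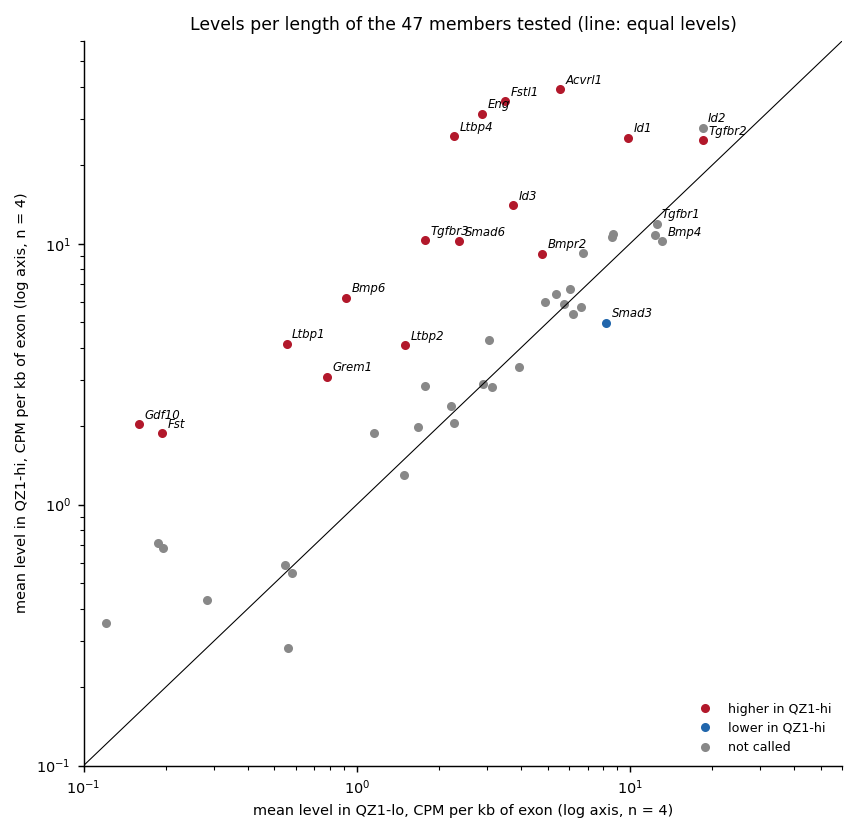
Mean level per kb of exon in QZ1-lo (x axis) and in QZ1-hi (y axis) for the 47 members tested, both on log axes, with a line where they are equal and 4 libraries behind each mean. Acvrl1 (39.2 CPM per kb), Fstl1 (35.2) and Eng (31.6) stand at the top of QZ1-hi and far above the line, Tgfbr2 and Id2 are high in both populations, and Smad3 lies below the line.

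The SMAD genes split. Most of them, Smad1, Smad2, Smad4, Smad5, Smad7 and Smad9, were not called, 1 was called higher and 1 lower. Smad6, whose product inhibits mainly BMP signalling and which BMP itself induces, was at 36.6, 21.2, 44.8 and 28.4 CPM in QZ1-hi libraries 1 to 4 and at 4.17, 6.71, 14.5 and 4.99 CPM in QZ1-lo libraries 1 to 4. The log2FC of Smad6 was 2.11 (SE 0.38, adjusted p = 0.00285) without overlap. Smad3, the TGF-beta and activin transducer, was at 32.6, 31.7, 29.4 and 16.6 CPM in QZ1-hi and at 45.1, 46.9, 51.7 and 38.3 CPM in QZ1-lo. Here every QZ1-hi library was below every QZ1-lo library, and the log2FC was -0.72 (SE 0.20, adjusted p = 0.028). The Smad3 call was lost without QZ1-lo 1, QZ1-lo 2 or QZ1-lo 3, at adjusted p of 0.058 to 0.069, with the direction kept. Smad7, the general inhibitory SMAD, had a log2FC of 0.30 (SE 0.14, adjusted p = 0.193), at 38.9 to 57.0 CPM and 36.0 to 43.5 CPM. Smad1 had 0.48 (SE 0.18, adjusted p = 0.090), and Smad2, Smad4 and Smad5 had -0.15, -0.19 and 0.04. Smad9 was the least abundant, at 1.23 to 4.80 CPM and 0.450 to 2.53 CPM.

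Smad3 and Smad6 are also neighbours, 195.1 kb apart on chromosome 9 with 0 protein-coding genes between them, and they went opposite ways. Per length, Smad6 over Smad3 in the same library was 1.16 to 2.95 in QZ1-hi and 0.160 to 0.485 in QZ1-lo, so Smad6 was above Smad3 in every QZ1-hi library and below it in every QZ1-lo library. Smad6 over Smad7 was 0.701 to 1.19 and 0.149 to 0.471.

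Among the 8 antagonists and modulators, 3 of the 7 tested were called higher and 0 lower. Fstl1, a secreted follistatin-like glycoprotein typical of mesenchymal cells, was at 137, 150, 270 and 134 CPM in QZ1-hi libraries 1 to 4 and at 14.3, 21.4, 25.4 and 7.69 CPM in QZ1-lo libraries 1 to 4, a log2FC of 3.33 (SE 0.36, adjusted p = 2.78e-04). Fst, the activin-binding follistatin, was at 11.4, 10.4, 8.90 and 3.81 CPM in QZ1-hi and at 1.37, 1.06, 0.760 and 0.368 CPM in QZ1-lo, a log2FC of 3.26 (SE 0.46, adjusted p = 7.99e-04). Both were separated, but their order over the QZ1-hi libraries differed, with Fstl1 highest in QZ1-hi 3 and Fst highest in QZ1-hi 1. QZ1-lo 4 held 9 counts of Fst, which fell out of the test when at least 10 counts were asked for in every library. The QZ1-lo libraries alone did not carry Fst past the low-count filter, so its call is a description. Grem1, a secreted BMP antagonist of fibroblasts, was at 20.9, 17.1, 2.31 and 11.0 CPM in QZ1-hi and at 6.26, 2.89, 2.17 and 1.64 CPM in QZ1-lo. QZ1-hi 3 lay inside the QZ1-lo range for Grem1, and the log2FC was 1.98 (SE 0.59, adjusted p = 0.039). Its call was lost without QZ1-hi 1, QZ1-hi 2, QZ1-hi 4, QZ1-lo 2, QZ1-lo 3 or QZ1-lo 4, at adjusted p of 0.056 to 0.109, with limma voom (0.107) and with robust shrinkage (0.069). Bmper and Chrd, both extracellular regulators of BMPs, had log2FC values of 1.92 (SE 0.62, adjusted p = 0.055) and 1.79 (SE 0.57, adjusted p = 0.051) in edgeR and were called by DESeq2, each at an adjusted p of 0.011. Bambi, a membrane pseudoreceptor, was at 7.21 to 10.9 CPM and 3.07 to 11.2 CPM (log2FC 0.71, SE 0.36, adjusted p = 0.227). Its highest QZ1-lo library was QZ1-lo 3, without which the log2FC was 1.23 and the adjusted p 0.00905. Fstl3 had a log2FC of -0.20 (SE 0.41), and 47.3% of its exon bases lie opposite Prss57. Nog held 37, 0, 6 and 1 counts in the QZ1-hi libraries and 13, 2, 0 and 0 in the QZ1-lo libraries.

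The ID genes encode helix-loop-helix proteins that bind and block basic helix-loop-helix factors, and 2 of the 4 were called higher. Id3 was at 27.3, 25.0, 32.0 and 16.1 CPM in QZ1-hi libraries 1 to 4 and at 3.88, 7.20, 13.1 and 2.62 CPM in QZ1-lo libraries 1 to 4, a log2FC of 1.91 (SE 0.43, adjusted p = 0.010). Id1 was at 42.8, 22.1, 33.9 and 19.5 CPM in QZ1-hi and at 8.23, 13.3, 19.3 and 4.79 CPM in QZ1-lo, a log2FC of 1.38 (SE 0.39, adjusted p = 0.030). For Id1 the lowest QZ1-hi library, QZ1-hi 4, was barely above the highest QZ1-lo library, QZ1-lo 3. The Id1 call was lost without QZ1-hi 1, QZ1-hi 3, QZ1-lo 1 or QZ1-lo 2, at adjusted p of 0.056 to 0.087, when scaled by library size alone (0.067) and with robust shrinkage (0.054). Id2, at 46.6 to 85.2 CPM and 34.6 to 52.4 CPM, had a log2FC of 0.59 (SE 0.19, adjusted p = 0.053) in edgeR, and DESeq2 called it (0.029). Id4 was at 0.254 to 4.49 CPM and 1.04 to 3.31 CPM, and 6.6% of its exon bases lie opposite other genes.

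The libraries within a population did not carry the members equally. Of the 16 members called higher, 11 had their highest QZ1-hi level in QZ1-hi 3, 11 their highest QZ1-lo level in QZ1-lo 3 and 11 their lowest QZ1-lo level in QZ1-lo 4, which is 68.8% each time. Among all genes called higher these shares were 57.8%, 44.4% and 43.7%. The summed pan-endothelial and fibroblast markers were likewise highest in QZ1-hi 3 and QZ1-lo 3 and lowest in QZ1-lo 4. Ltbp2, Grem1, Fst and Id1 departed from this order as they were highest in QZ1-hi 1, and for Ltbp2 and Grem1 QZ1-hi 3 was the lowest QZ1-hi library. Tgfbr2 was highest in QZ1-hi 2 and QZ1-lo 4. Within QZ1-lo, Grem1 and Fst were highest in QZ1-lo 1, and Ltbp1 and Gdf10 in QZ1-lo 2.

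**Figure D4:**
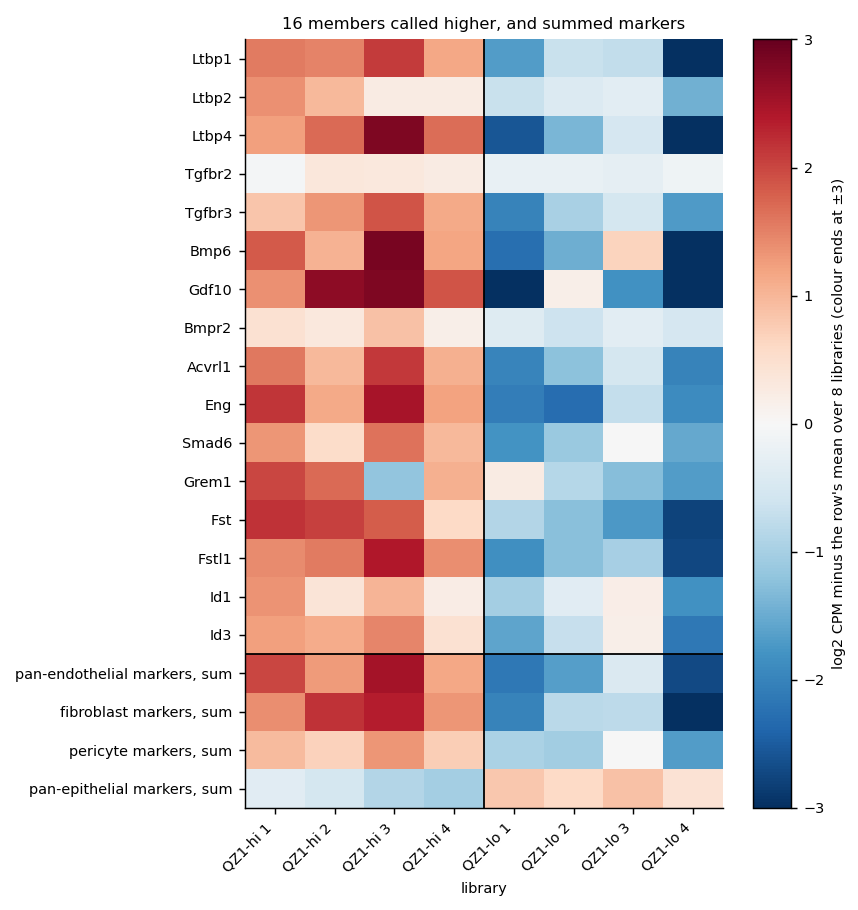
Colour gives the log2 CPM of each of the 16 members called higher, and of 4 summed marker lists below the line, minus the row's mean over the 8 libraries (columns), with levels under the floor of 3 counts set to that floor. QZ1-hi 3 is the highest QZ1-hi library in 11 of the 16 rows of members, QZ1-lo 4 the lowest QZ1-lo library in 11, and the pan-epithelial row runs the other way.

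Relative to the summed pan-endothelial markers of the same library, none of the 16 members called higher was higher in QZ1-hi without overlap, 9 overlapped and 7 (43.8%) were lower without overlap. Of all 1540 genes called higher, 0.649% were higher without overlap on this scale, 49.9% overlapped and 49.5% were lower. Per 100 CPM of these markers, Eng was at 10.8 to 13.0 CPM in QZ1-hi and 7.60 to 21.03 CPM in QZ1-lo, and Ltbp4 at 8.34 to 20.2 CPM and 10.7 to 17.2 CPM. Acvrl1 was at 14.6 to 18.2 CPM and 18.3 to 32.2 CPM on that scale, so its QZ1-hi libraries were all below its QZ1-lo libraries. Smad6, Id1, Id3, Ltbp2, Tgfbr2 and Bmpr2 were the other 6 that were lower. Against the summed fibroblast markers the counts were 0 higher, 10 overlapping and 6 lower (37.5%), beside 0.649% higher, 46.2% overlapping and 53.2% lower among all genes called higher. Ltbp1 was then at 2.16 to 3.83 CPM and 3.55 to 4.45 CPM per 100 CPM of markers, and Fstl1 at 7.99 to 12.8 CPM and 8.89 to 22.6 CPM. A member with like levels in both populations is by arithmetic lower in QZ1-hi on such a scale, since the markers differ.

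Ratios between related members within a library do not depend on scaling and show where relatives moved unequally. The 13 pairs were chosen with the values known, mostly as a called member over a relative that was not called, which in part fixes their separation, so the ratios are given as a description without a count or a test. Per length, Ltbp4 over Tgfb1 was 1.42 to 4.92 in QZ1-hi and 0.0900 to 0.590 in QZ1-lo, and Ltbp1 over Tgfb1 was 0.234 to 0.625 and 0.0155 to 0.103. Ltbp4 and Ltbp1 transcripts were thus higher against the Tgfb1 transcript in each QZ1-hi library than in any QZ1-lo library. Ltbp3, which was not called, and Ltbp2 were not compared with Tgfb1 in this way. Bmpr2 over Bmpr1a was 1.35 to 2.11 and 0.582 to 0.884, and Bmp6 over Bmp4 was 0.324 to 1.31 and 0.00991 to 0.243. Tgfbr2 over Tgfbr1, at 1.46 to 2.84 and 1.38 to 1.58, overlapped, as did Fst over Inhba, Id1 over Id2 and Id3 over Id2.

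**Figure D5:**
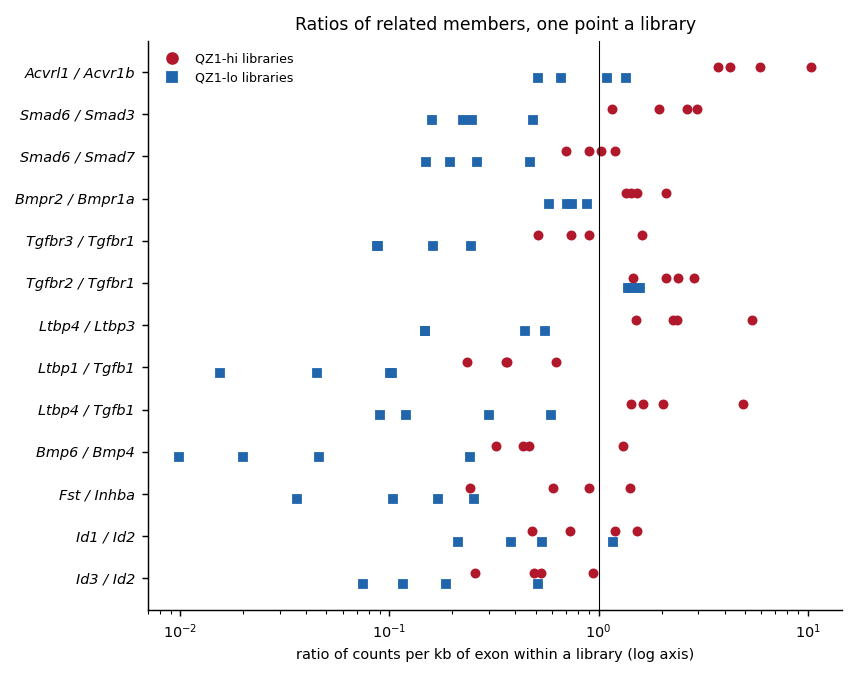
Ratio of the levels per kb of exon of 13 pairs of related members (rows) in each QZ1-hi library (red circles) and each QZ1-lo library (blue squares), on a log axis with a line at equal levels. The pairs without overlap include Acvrl1 over Acvr1b (3.72 to 10.3 against 0.515 to 1.36) and Smad6 over Smad3 (1.16 to 2.95 against 0.160 to 0.485).

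A wider list of 68 further genes of the same pathways, holding other ligands, antagonists, activators, SMAD regulators and response genes, was also counted. Of these 68 genes, 8 were at 0 counts in every library and 43 were tested. Called higher were 14 (32.6%, against 9.88% of all genes tested) and lower 3 (6.98%, against 8.21%). The median log2FC of the 43 was 0.37, beside 0.02 over all genes tested. This list was also chosen with earlier results of these data known, so its shares are a description. The 5 with the largest rise were Snai2, Dcn, Chrdl1, Zeb1 and Lrrc32. Dcn, the proteoglycan decorin that binds TGF-beta and is also among the fibroblast markers, was at 212, 540, 495 and 262 CPM in QZ1-hi libraries 1 to 4 and at 28.5, 75.1, 53.9 and 10.9 CPM in QZ1-lo libraries 1 to 4 (log2FC 3.16, SE 0.53, adjusted p = 0.0018). Zeb1, a repressor of epithelial genes that mesenchymal cells express, was at 58.4 to 116 CPM and 10.1 to 20.3 CPM (log2FC 2.51, SE 0.26). Lrrc32, which encodes a cell-surface anchor of latent TGF-beta, was at 9.89 to 21.7 CPM and 1.79 to 4.13 CPM (2.32, SE 0.33). Snai2 and Chrdl1 were scarce. Snai2 was at 1.27 to 3.47 CPM in QZ1-hi and 0.0724 to 0.388 CPM in QZ1-lo, where 3 libraries held 2 counts each. Chrdl1 was at 0.932 to 7.71 CPM in QZ1-hi and 0.00 to 0.716 CPM in QZ1-lo. Snai2 and Chrdl1 met the low-count filter only through their QZ1-hi libraries, so their calls and rank are a description.

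The 3 called lower in the wider list were Itgb6, Itgav and Tgif1. Itgb6 and Itgav encode the subunits of an integrin by which epithelial cells release TGF-beta from its latent complex. Itgb6 was at 56.7, 43.7, 23.2 and 29.5 CPM in QZ1-hi libraries 1 to 4 and at 153, 101, 106 and 96.7 CPM in QZ1-lo libraries 1 to 4, with a log2FC of -1.58 (SE 0.26, adjusted p = 0.00179). Itgav was at 94.2, 90.7, 71.3 and 88.1 CPM and at 218, 162, 152 and 162 CPM, with a log2FC of -1.01 (SE 0.15, adjusted p = 8.76e-04). Itgb8, named here after its values were seen, encodes another partner of the Itgav product that releases TGF-beta, and it was at 0.925 to 3.51 CPM in QZ1-hi and 0.326 to 1.38 CPM in QZ1-lo (log2FC 1.23, SE 0.64, adjusted p = 0.242). Itgb6 and Itgav were thus lower in QZ1-hi, as were the summed pan-epithelial markers. Ltbp1, Ltbp4 and Lrrc32, whose products hold the latent complex, were higher, as were the summed pan-endothelial and fibroblast markers. Not every relative of these genes was called: Ltbp3 had a log2FC of 0.45 (adjusted p = 0.064). Nrros, a relative of Lrrc32 in the wider list, had one of 0.56 (SE 0.29, adjusted p = 0.245). The part of these cell types in the differences was not tested. Tgif1, a corepressor of SMADs, had a log2FC of -0.81 (SE 0.20, adjusted p = 0.016).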

How the data were processed

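Cells sorted by QZ1 signal from Eml4-Alk lungs gave 4 QZ1-hi and 4 QZ1-lo libraries for bulk RNA-seq. The deposited table holds unnormalized read counts that the authors obtained with Rsubread, listed by Entrez Gene identifier for 27179 genes. The submitters' processing notes name mm10. The aligner, annotation and strand setting are not given in the sources used here. Symbols were found for 25275 identifiers and not for 1904. Populations were grouped by the sample labels, with libraries numbered in accession order.

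The main analysis used edgeR 4.0.16 (R 4.3.3) with TMM scaling, filterByExpr (minimum count 10, total 15) and the quasi-likelihood test over 15583 genes, with Benjamini-Hochberg adjustment at 0.05. The common dispersion was 0.113. Each SE was obtained as |log2 fold change| over the root of its F statistic. Levels per kb use the exonic bases of GENCODE M21. The procedure was tested on simulated data. Summed markers were compared by exact permutation tests. Alternatives were DESeq2 1.42.0, limma 3.58.1 (voom with quality weights), DESeq2 size factors, library size only, no filter, a minimum of 10 counts per library, robust shrinkage, removal of mitochondrial and ribosomal RNA genes, a stricter threshold of 0.01, and leaving out each library in turn.

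The members and gene lists were chosen with earlier results of these data known. Library values are given for members called with a log2 fold change over 1 in size and for relatives of the same role that contrast with them. Of the wider list the 5 called genes with the largest change in each direction are named. Values per library of other called members, the motifs and Nog were added after the values were seen. No separate columns of other samples were present. The other experiments of the study were not analysed here.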

Additional observations from a re-analysis of the deposited data

Results flagged for a closer look

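Each member's 4 libraries of a population were checked for a library that stood apart from the other 3 by Dixon's ratio of gap to range. Of 94 such groups 3 held an outlying library, and chance alone gives about 1 in 20. Eng was at 21.5 CPM in QZ1-lo 3 and between 7.20 and 9.54 CPM in the remaining 3. Smad9 was at 4.80 CPM in QZ1-hi 3 and at 1.23 to 1.73 CPM in the other QZ1-hi libraries. Fstl1 was at 270 CPM in QZ1-hi 3 and at 134 to 150 CPM in the others. The summed pan-endothelial and fibroblast markers were also highest in QZ1-hi 3 and in QZ1-lo 3, and their part in these values was not tested.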

How the results depend on the processing

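Of 794 member values under up to 17 alternatives each, 704 kept their direction and their side of the threshold, 33 lost a call, 23 gained one and 34 changed sign. Ltbp1, Ltbp2, Ltbp4, Tgfbr3, Acvrl1, Eng, Smad6, Fst, Fstl1 and Id3 were called under every alternative in which they were tested. Fst was not tested when at least 10 counts were asked for in every library. Of the 17 calls, DESeq2 kept 17, limma voom 16, library size only 14, robust shrinkage 14 and leaving out a library 12 to 16. Scaling by library size only moved the median of all genes to -0.44; it gave 2 members lower, 8 higher and 7 lower in the wider list, and 882 higher and 2509 lower over all genes. It turned the sign of 11 log2 fold changes: Tgfb1 -0.16, Tgfb2 -0.36, Tgfb3 -0.21, Ltbp3 -0.027, Tgfbr2 -0.052, Acvr1b -0.33, Bmp2 -0.15, Inhbb -0.12, Smad5 -0.42, Smad7 -0.13, Id4 -0.48. Limma voom turned 3: Acvr2b 0.22, Acvr1 0.047, Id4 -0.32. DESeq2 called 5 genes of the wider list lower. An adjusted p under 0.01 left 11 members higher and 0 lower, 8 of the wider list higher, and 902 higher and 665 lower over all genes. Leaving out a library gave 0 to 1 members lower, and these ranges spanned 0: Tgfb2 -0.052 to 0.26, Tgfbr1 -0.27 to 0.020, Acvr2b -0.33 to 0.36, Bmp2 -0.099 to 0.53, Bmp5 -0.41 to 0.018, Inhbb -0.055 to 0.41, Acvr1 -0.11 to 0.076, Smad5 -0.095 to 0.10, Smad9 -0.059 to 0.95, Fstl3 -0.44 to 0.050, Id4 -0.50 to 0.49. Each of these members was without a call in the main analysis except Tgfbr2. The cause of these changes was not tested beyond the scaling shift itself. Nog held 0 to 37 and Bmp7 0 to 57 counts per library, where a difference may not be detectable at this depth. No paired analysis was possible because neither the labels nor the methods link the libraries to mice, and the labels give no replicate numbers. Library numbers follow accession order, in which the populations alternate, and whether libraries of the same number share a mouse is not known.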
